A study of Homo sapiens with 8 samples.

Results

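Ribo-seq counts per RNA were described in SH-SY5Y cells carrying a control short hairpin RNA, for every gene whose level could be measured in both assays. A gene was taken where it was listed in both count tables, had a mean of at least 10 CPM (counts per gene scaled to the library total) over the 2 control RNA-seq libraries and had at least 20 counts in each of the 2 control Ribo-seq libraries. This gave 6275 genes of the 12873 listed in both tables, and they were ranked by log2 of mean control Ribo-seq CPM over mean control RNA-seq CPM. The genes were thus chosen by their control RNA-seq and Ribo-seq levels and ranked on the control ratio, so these values are given as a description with no test. The study compared cells with a hairpin against RPS29 (shRPS29), a protein of the small ribosomal subunit, with cells carrying a control hairpin (shCONT). It holds 8 libraries in 4 groups of 2: RNA-seq of shCONT, RNA-seq of shRPS29, Ribo-seq of shCONT and Ribo-seq of shRPS29. SH-SY5Y is an established human neuroblastoma line, and all groups share it. The labels give no hairpin sequence, time after delivery, drug treatment or clone, and nothing in them says that the 2 libraries of a group came from separate cultures, so their spread may be technical.

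Ribo-seq sequences the short RNA fragments that a ribosome shields from nuclease, and counts per gene divided by the RNA level of that gene are commonly read as the load of ribosomes on an mRNA. The ratio of an mRNA depends on how often ribosomes start on it, how fast they move, and what part of the counted region is coding sequence. Any other RNA that survives the nuclease digestion and has the size of a footprint is sequenced with it, among them small nucleolar RNAs (snoRNAs) and microRNAs (miRNAs), many of which are cut out of the introns of protein-coding genes. Messenger RNAs of ribosomal proteins and several translation factors begin with a pyrimidine tract, the 5′ terminal oligopyrimidine (TOP) motif, through which their translation follows growth signalling. The ratio was set relative to the median member, whose Ribo-seq CPM was 0.324 times its RNA-seq CPM. A value of 1 on the log2 scale is therefore a ratio 2-fold above that of the median member.

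Noradrenergic neuroblastoma markers were present as the cell line's label implies, with 9 of 10 listed markers at 10 RNA-seq CPM or more and a summed level of 5619 and 5695 CPM in the 2 control libraries. TH did not reach that level, with 4 and 2 counts. Of 12 mesenchymal or stromal markers 8 reached it as well (summed level 1370 and 1373 CPM), the highest being VIM at 625 CPM. Of 10 epithelial markers 8 were in the table and none reached 10 CPM (summed level 9.16 and 11.6 CPM), and of 10 blood markers 6 were in it and only CORO1A reached that level (summed level 39.9 and 39.2 CPM). For RPS29, RNA-seq counts were 2430 and 2872 with the control hairpin but 147 and 117 with the RPS29 hairpin, which fits the labels. Its control ratio was 0.21, from 199 and 129 Ribo-seq counts, and its span holds RN7SL1, a gene of the signal recognition particle RNA. Control RNA-seq libraries held 18125164 and 18539460 counts and control Ribo-seq libraries 2899655 and 3235621. RefSeq types 14007 of the 14019 genes with Ribo-seq counts as protein-coding, and all 6272 members that matched the RefSeq gene table were protein-coding. None of the 17 noncoding snoRNA host genes at 10 RNA-seq CPM or more was listed in the Ribo-seq table, so noncoding RNAs are not described here. Of 12 well-known long noncoding RNAs at that level only TUG1, which RefSeq now types as protein-coding, was listed there, with a ratio of -0.57.

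The ratio spread widely. The quartiles lay at -0.67 and 0.71, the lowest was HNRNPA1 at -6.74 and the highest was HOXD3 at 11.50. A total of 1143 members (18.2%) lay at least 2-fold above the median member and 971 (15.5%) at least 2-fold below it. In 880 of the 1143 and 670 of the 971 both control replicates were past the 2-fold line on their own, and no member had its replicates past it on opposite sides. The median absolute difference between the 2 replicates was 0.42, and Spearman's rho between replicates across the 6275 genes was 0.815, a description over genes that share 4 libraries.

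**Figure D1:**
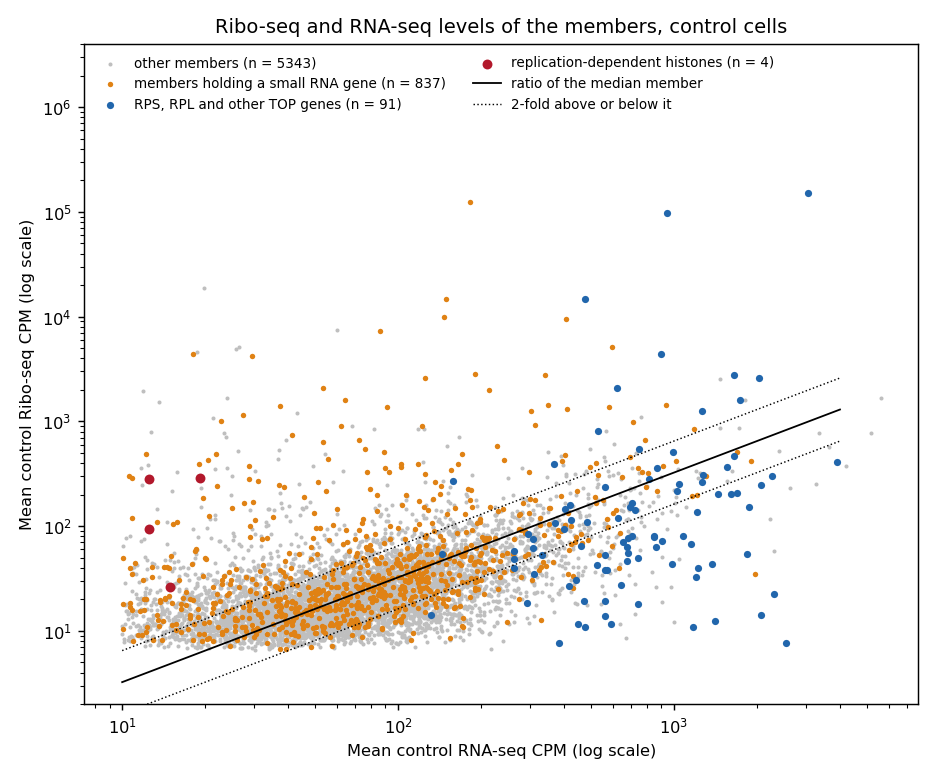
Mean control Ribo-seq CPM against mean control RNA-seq CPM, 1 point per member, both axes logarithmic. The solid line is the ratio of the median member (0.324) and the dotted lines mark 2-fold above and below. Orange members hold a small RNA gene and lie on both sides of the line, with some far above it. The 4 histone members, in red, lie above the line, and the 91 ribosomal protein and TOP members, in blue whether or not they hold a small RNA gene, lie at high RNA levels on both sides of it.

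Lower RNA levels went with higher ratios, and the selection had a part in this that can be read from its thresholds. Across members the ratio ranked against RNA level with rho = -0.56 (n = 6275 genes, the RNA level being the divisor of the ratio). The median ratio was 1.17 in the 1037 members at 10 to 30 RNA-seq CPM, 0.00 in the 3098 at 30 to 100, -0.57 in the 1668 at 100 to 300 and -0.77 in the 472 at 300 or more. Among the members at 10 to 30 CPM none lay 2-fold below the median member, because 20 Ribo-seq counts already place such a gene above that line. Only 1037 of 3022 genes at that RNA level passed the Ribo-seq minimum, against 472 of 493 at 300 CPM or more. Of 9757 genes at 10 RNA-seq CPM or more, 3482 fell short of 20 Ribo-seq counts in a control library. At the threshold itself, 134 members with exactly 20 counts in their lower control library had a median ratio of -0.47, and 163 genes left out with 19 counts had -0.50. On the RNA side TMEM260, just inside at 10.01 CPM, had a ratio of 1.54, and SWI5, just outside at 9.98 CPM, had 2.01.

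Genes that contain small RNA genes were frequent at the top of the ranking. The RefSeq table (GRCh38.p14) places a small RNA gene inside the span of 10 of the 20 highest members and 50 of the 100 highest, against 14% of all members. With small RNA pseudogenes counted too, these were 15 of 20 and 61 of 100, against 22.1%. The table gives gene spans and no exons, so whether a small RNA lies in an intron is not stated here. The 20 highest members took 46.3 and 45.9% of all control Ribo-seq counts, while they took 0.484 and 0.496% of control RNA-seq counts. Members holding a small RNA gene took 53.7 and 54.7% of the Ribo-seq counts. The reads themselves were not used here, so the part of these counts that comes from the small RNAs was not tested.

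SEC14L1, a lipid-binding protein gene on chromosome 17 that spans SCARNA16 and MIR6516, had 417817 and 332001 Ribo-seq counts against 3321 and 3377 RNA-seq counts, a ratio of 11.02. RPS2, a small-subunit protein gene that spans SNORA10 and SNORA64, had 336312 and 592822 Ribo-seq counts against 54792 and 57389 RNA-seq counts, a ratio of 7.24. RPL27A, a large-subunit protein gene that spans SNORA3A and SNORA3B, had 313440 and 285008 against 16689 and 17879, a ratio of 8.33. Both control replicates put these 3 genes at least 6.88 above the median member. NOP56, a core protein of the snoRNA-protein particle, spans 5 snoRNA genes and MIR1292 and had a ratio of 8.25, with replicates apart at 6.96 and 9.01 (17753 and 75610 Ribo-seq counts). DIPK1A, which spans SNORD21 and SNORA66, reached 9.56, and MRPL3, a mitochondrial ribosomal protein gene that spans SNORA58, reached 7.69.

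MiRNA hosts formed a second set at the top. The mature sequences annotated within 5 of these hosts are shown, 5′ to 3′, because they lie inside the counted genes and are of a length a footprint library can hold; capitals mark the seed, bases 2 to 8, which pairs with target mRNAs.
hsa-miR-21-5p (in VMP1, chr17:59841273-59841294, plus strand): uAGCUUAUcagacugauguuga
hsa-miR-361-5p (in CHM, chrX:85903681-85903702, minus strand): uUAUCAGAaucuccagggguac
hsa-miR-423-5p (in NSRP1, chr17:30117095-30117117, plus strand): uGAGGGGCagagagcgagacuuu
hsa-miR-423-3p (in NSRP1, chr17:30117131-30117153, plus strand): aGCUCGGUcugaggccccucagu
hsa-miR-191-5p (in DALRD3, chr3:49020672-49020694, minus strand): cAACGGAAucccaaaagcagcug
hsa-miR-126-3p (in EGFL7, chr9:136670653-136670674, plus strand): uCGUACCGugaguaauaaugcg
hsa-miR-126-5p (in EGFL7, chr9:136670616-136670636, plus strand): cAUUAUUAcuuuugguacgcg
Sequences and coordinates are RefSeq's, on GRCh38.p14. These arms share no seed with each other.

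VMP1, an autophagy membrane protein gene, had 27218 and 16308 Ribo-seq counts against 1509 and 1653 RNA-seq counts, a ratio of 8.01. CHM, which encodes Rab escort protein, had 15072 and 10283 against 576 and 511, a ratio of 8.77. NSRP1, a splicing regulator gene, had 4937 and 1853 against 475 and 531, ratios of 7.64 and 6.02 in the 2 replicates. In these 3 hosts the first control library was the higher of the pair, as it was in DALRD3 (5739 and 2711 counts, ratio 6.86) and EGFL7 (1907 and 640 counts, ratio 6.01). MCM7, a subunit of the replicative helicase, spans MIR25, MIR93 and MIR106B and had 20333 and 10760 Ribo-seq counts, a ratio of 4.75. It was the highest of the 38 G1/S and replication members, whose median was -0.31.
hsa-miR-93-5p (in MCM7, minus strand): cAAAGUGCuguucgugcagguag
hsa-miR-106b-5p (in MCM7, minus strand): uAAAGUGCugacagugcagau
These 2 arms, shown because they are neighbours in 1 host, share the seed AAAGUGC. As a group, however, hosts stood only modestly above other members. The median ratio was 0.22 in the 878 members holding a small RNA gene, with 257 at least 2-fold above and 105 at least 2-fold below, and -0.04 in the 5397 without one. Hosts of snoRNA or scaRNA genes (n = 337) had a median of 0.42 and hosts of miRNA genes (n = 549) a median of 0.14.

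Among members with no small RNA gene in their span, the 10 highest with at least 50 counts in each control Ribo-seq library were HOXD3, AADAT, TNFRSF9, PCLO, HDX, PARD3, ANKEF1, PPP1R16B, SIL1 and EPG5. HOXD3, a homeobox transcription factor gene, had 75754 and 36235 Ribo-seq counts against 385 and 343 RNA-seq counts. Its span on chromosome 2, positions 176152529 to 176173098, holds no small RNA, and MIR10B lies 2117 bases outside it. AADAT, an aminotransferase of lysine and tryptophan breakdown, had 16403 and 11139 Ribo-seq counts against 340 and 345 RNA-seq counts, a ratio of 9.55, and no annotated small RNA within 797175 bases. The 10 ratios ran from 7.29 (EPG5, an autophagy tether) to 11.50, and both replicates of each were above 6.

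Of the 10, 5 held a small RNA pseudogene, against 509 of all 5397 members with no small RNA gene. Those 509 had a median ratio of 0.18 and a median span of 104 kb. Members holding neither had -0.06 and 30.6 kb. TNFRSF9, an immune co-stimulatory receptor gene, holds the tRNA pseudogene TRUND-NNN4-1, and PARD3, a cell polarity gene, holds TRL-CAA7-1. PCLO, which encodes a presynaptic scaffold, holds the 5S rRNA pseudogene RNA5SP235, and SIL1, an exchange factor for the ER chaperone BiP, holds RNA5SP194. PPP1R16B, a phosphatase regulatory subunit gene, holds RN7SL116P, a copy of the signal recognition particle RNA. TNFRSF9 had 11616 and 19968 Ribo-seq counts, PCLO 18667 and 10642, PARD3 14724 and 31987, PPP1R16B 6390 and 3699 and SIL1 2235 and 2661. The highest RNA-seq level of the 5 was 60.1 CPM, in PARD3. Whether reads of the pseudogenes enter these counts was not tested.

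**Figure D2:**
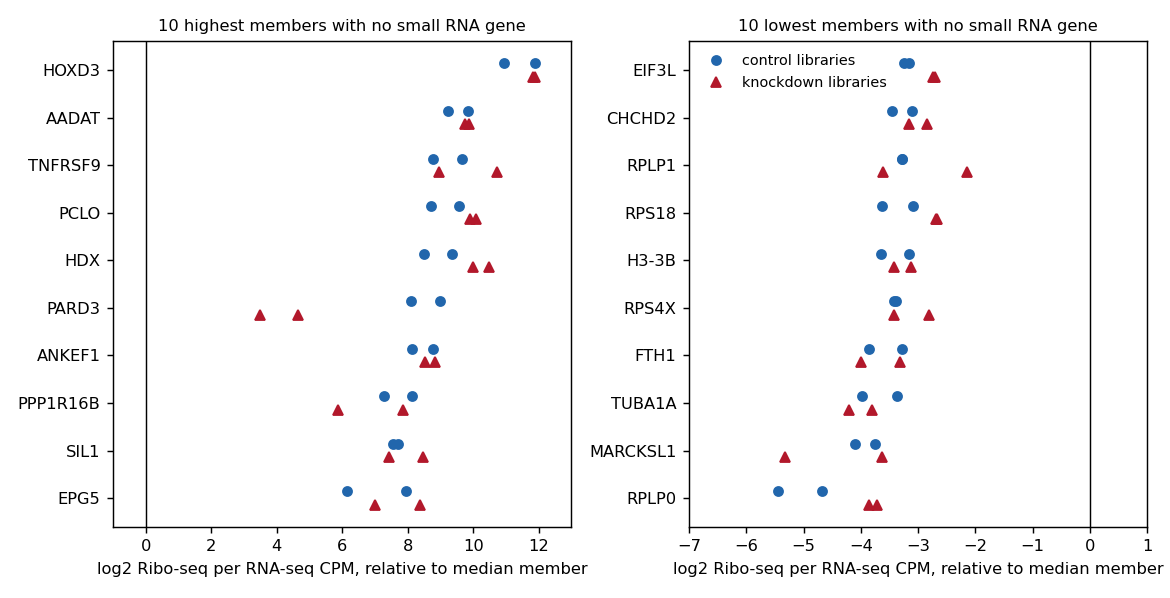
Ratio in each control library (blue circles) and each knockdown library (red triangles) for the 10 highest and the 10 lowest members with no small RNA gene and at least 50 counts in each control Ribo-seq library. The control points of the highest lie between 6.13 and 11.88 and those of the lowest between -5.44 and -3.10; PARD3 is the one highest gene whose knockdown points lie below 5.

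Some further high genes overlapped a strongly expressed neighbour or lay close to one. They were chosen after their values were seen. NME1-NME2, a readthrough gene model that spans NME2, had 1532 and 1688 Ribo-seq counts against 508 and 457 RNA-seq counts, a ratio of 5.94. ENO3, the muscle enolase gene, ends 180 bases from PFN1 and had a ratio of 5.45. NKIRAS1 overlaps RPL15 and had 5.09, and MUS81, a nuclease gene, lies 1494 bases from CFL1 and had 5.72. RNA-seq CPM of the neighbour was 496 for NME2, 999 for PFN1, 1280 for RPL15 and 1468 for CFL1, against 15.2 to 39.4 for the 4 genes themselves. How reads of overlapping genes were assigned is not stated in the labels, so the ratios of NME1-NME2 and NKIRAS1 are uncertain. ENO3 and MUS81 lie beside their neighbours without overlap. Any part of the neighbours in these ratios was not tested, and how many other members have such a neighbour is not given here.

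Replication-dependent histone genes were the highest class. Their mRNAs end in a stem-loop in place of a poly(A) tail and are made in S phase. Of 62 listed genes 4 were members, and all 4 lay at least 2-fold above the median member, with a class median of 5.02. H1-2, a linker histone, had 809 and 909 Ribo-seq counts against 206 and 252 RNA-seq counts, a ratio of 6.11. H2BC12 had 778 and 982 against 343 and 359 (5.53), H2AC6 had 298 and 272 against 219 and 241 (4.52), and H2BC5 had 78 and 82 against 270 and 276 (2.44). The replicates of each of the 4 differed by at most 0.31. None of them holds a small RNA gene.

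Most histone genes were no members because their RNA-seq level was too low, not their Ribo-seq counts. A total of 39 listed histone genes lay under 10 RNA-seq CPM and were listed in both tables, and 35 of them had at least 20 counts in each control Ribo-seq library. All 39 had more Ribo-seq CPM than RNA-seq CPM, with medians of 80.6 against 0.409 CPM. H1-4 had 4048 and 4120 Ribo-seq counts against 4 and 7 RNA-seq counts, the highest Ribo-seq level of the 39 at 1335 CPM. H1-5 had 1103 and 1266 against 9 and 4, and H2AC12 had 417 and 408 against 2 and 1. The RNA-seq libraries were made from total RNA with a total RNA kit, per the labels' protocols, and these RNA-seq counts rest on few reads, so the ratios of these genes carry a large counting error. How fully these libraries captured mRNAs without a poly(A) tail was not tested. The RNA level that divides the ratio is therefore uncertain for the whole class, its 4 members included. H2AC19 and H4C14, at 10 RNA-seq CPM or more, were not listed in the Ribo-seq table.

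Abundant mRNAs of the translation machinery were frequent among the very lowest members. Of the 20 lowest 12 belonged to the lists of small-subunit proteins, large-subunit proteins or other TOP genes, and of the 100 lowest 22 did, against 1.45% of all members. The Ribo-seq minimum leaves very low ratios to abundant RNAs, and the 100 lowest had a median RNA level of 384 CPM. Of the 472 members at 300 CPM or more, 83 were in these lists, so the 22 of 100 lay near the share at high RNA levels. The lowest was HNRNPA1, an RNA-binding splicing regulator whose mRNA is of the TOP class, with 25 and 22 Ribo-seq counts against 45266 and 47920 RNA-seq counts. Its ratio of -6.74 is 107-fold below that of the median member. EEF1G, a subunit of the elongation factor complex, had 39 and 49 against 37493 and 38299, a ratio of -5.55. RPLP0, a protein of the ribosomal stalk, had 50 and 89 against 41577 and 42709, a ratio of -5.06. Together the 20 lowest took 2.26 and 2.35% of control RNA-seq counts and 0.0353 and 0.0366% of control Ribo-seq counts.

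Large-subunit ribosomal protein genes had a median ratio of -1.55, with 27 of 42 members at least 2-fold below and 7 at least 2-fold above. RPL41 was at -5.13, from 45 and 20 Ribo-seq counts against 20471 and 22475 RNA-seq counts. Small-subunit genes had a median of -0.63, with 12 of 27 below and 5 above. RPS4X was at -3.45, from 158 and 178 Ribo-seq counts. Of the 12 ribosomal protein genes that were at least 2-fold above, 9 hold a small RNA gene, and without the holders the medians were -2.19 for 16 small-subunit genes and -1.78 for 21 large-subunit genes. The 3 high ones without such a gene were RPS6 (1.61), RPS23 (1.16) and RPL35A (1.71).

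The filter removed some of the most extreme genes of this class. EEF1A1, the elongation factor that carries aminoacyl-tRNA to the ribosome, had 225783 and 228099 RNA-seq counts but 21 and 3 Ribo-seq counts, which put it at -9.94 on the same scale. RPS3A, RPS7, RPS10, RPS26 and RPS28 of the small subunit and RPL6, RPL7, RPL29, RPL32 and RPL36A of the large subunit also lacked 20 counts. With these included, the medians were -1.11 over 32 small-subunit and -1.78 over 47 large-subunit genes. Other TOP genes had a median of -1.45 (22 of 25 passed the filter, EEF1A1, EIF4B and NPM1 did not), with 13 below and 1 above, EIF4A2 at 2.40. EIF4A2, an RNA helicase of translation initiation, spans 6 small RNA genes. EEF2, the translocation factor, lay at -1.61 with 1265 and 1261 Ribo-seq counts, and TPT1, whose mRNA is a standard TOP transcript, at -1.38.

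The first bases of several of these mRNAs are shown because most of the class starts with a TOP tract, with TUBA1A, from outside the class, beside them. Each line gives 10 bases before and 20 bases from the RefSeq start, with the run of pyrimidines from the first transcribed base in capitals.
EEF1A1 (chr6:73521013-73521042, minus strand): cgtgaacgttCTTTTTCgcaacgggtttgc
RPLP0 (chr12:120201092-120201121, minus strand): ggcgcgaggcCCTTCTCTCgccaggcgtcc
RPL41 (chr12:56116623-56116652, plus strand): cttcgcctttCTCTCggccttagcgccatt
RPS18 (chr6:33272065-33272094, plus strand): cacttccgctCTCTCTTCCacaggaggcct
RPL27A (chr11:8682782-8682811, plus strand): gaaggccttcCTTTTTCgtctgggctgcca
TUBA1A (chr12:49189061-49189090, minus strand): cctatgtgccgcaggttctcttacatcgac
RPL27A, at 8.33, starts like RPL41, at -5.13, and TUBA1A, at -3.68, has no tract at its annotated start. RPS4X and EEF1G, low genes of the class whose starts are not shown, also have no pyrimidine at the annotated first base. A start motif of C followed by 4 pyrimidines was present in 17 of 20 small-subunit and 26 of 34 large-subunit members with an entry in the RefSeq promoter table. It was present in 8.53% of all 5285 members with an entry and in 5.14% of all 27305 genes in that table. RefSeq starts may differ from the starts used in these cells, and no other part of the promoter was searched. Among members at 300 RNA-seq CPM or more the median ratio was -1.26 with the motif (n = 90) and -0.68 without it (n = 304). At 30 to 100 CPM it was 0.06 (n = 172) and 0.00 (n = 2475).

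The lowest members also had many pseudogenes. Counted as RefSeq pseudogenes whose symbol is the gene's symbol followed by P and a number, HNRNPA1 had 75, HMGB1 50, RPL26 36, FTH1 27 and RPS4X 23. At least 3 were found for 18 of the 20 lowest members and 57 of the 100 lowest, against 6.26% of all members and 8 of the 100 highest. The median ratio was 0.06 in the 5050 members with none, -0.20 in 832 with 1 or 2, -0.74 in 292 with 3 to 9 and -1.20 in 101 with 10 or more. Genes with more pseudogenes also had more RNA, and the order held in the upper RNA tiers only. Among members with no small RNA gene, the 4 medians in the same order were -0.52, -1.05, -1.38 and -2.25 at 300 RNA-seq CPM or more, and -0.57, -0.78, -1.15 and -1.76 at 100 to 300 CPM. At 30 to 100 CPM they were -0.01, -0.01, -0.40 and -0.32, and at 10 to 30 CPM the first 3 were 1.07, 0.93 and 1.26, with no step down.

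Outside the ribosomal protein and TOP lists the same contrast was seen. Among the other members at 300 CPM or more with no small RNA gene, the median was -0.51 in 182 without a named pseudogene and -1.20 in 132 with at least 1. Within those lists the 2 features cannot be told apart, since 43 of the 44 members at that level with no small RNA gene have at least 1 named pseudogene (median -2.13). A read that fits a gene and its processed copies equally well may be dropped or split, depending on settings the labels do not state, and its part in the low ratios was not tested.

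**Figure D3:**
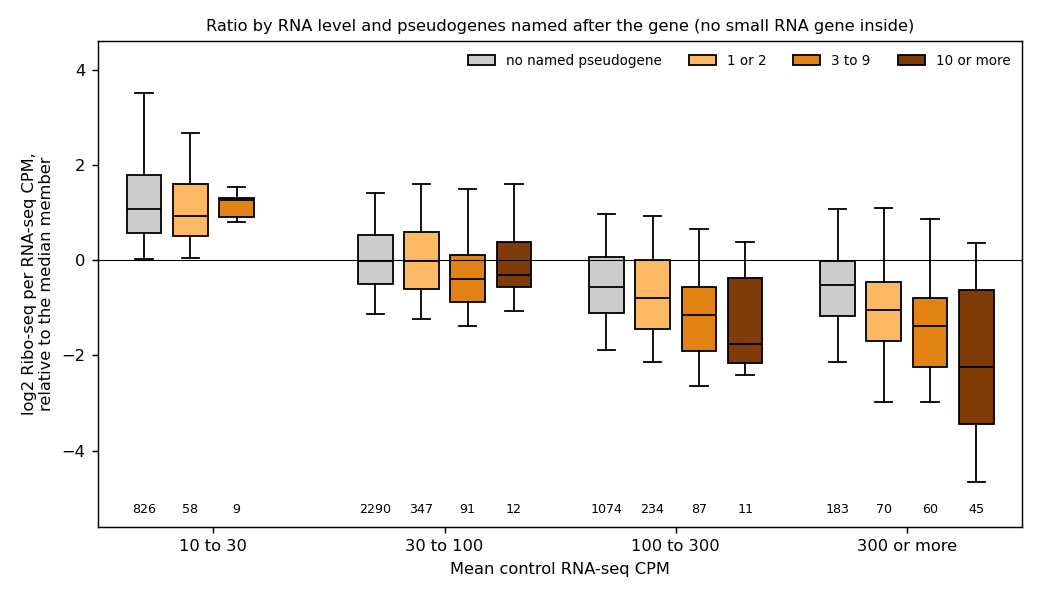
Ratio by RNA level and by number of pseudogenes named after the gene, for members with no small RNA gene. Boxes are quartiles with the median, whiskers run from the 5th to the 95th percentile, and the number of genes is under each box; combinations with fewer than 5 genes are not drawn. Medians fall from -0.52 to -2.25 across the boxes at 300 CPM or more.

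The 10 lowest members with no small RNA gene and at least 50 Ribo-seq counts in each control library were RPLP0, MARCKSL1, TUBA1A, FTH1, RPS4X, H3-3B, RPS18, RPLP1, CHCHD2 and EIF3L. TUBA1A, the main neuronal alpha-tubulin, had 208 and 145 Ribo-seq counts against 41379 and 42930 RNA-seq counts. MARCKSL1, a membrane-bound actin regulator, had 63 and 53 against 16229 and 17035, a ratio of -3.95. TUBA1A was at -3.68. H3-3B, at -3.42, encodes a replacement histone and had 64 and 97 Ribo-seq counts against 15346 and 16165 RNA-seq counts. H3-3B thus lay at the opposite end from the replication-dependent histones. Neither TUBA1A nor H3-3B has a named pseudogene, but any copies under another symbol were not counted.

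Tubulins, actins and their partners formed a low class, with a median of -1.05 and 10 of 19 members at least 2-fold below. TUBB was at -1.86, ACTB at -1.10 and TMSB4X, an actin-binding peptide, at -2.68. CFL1, the actin-severing cofilin, was the only one 2-fold above, at 2.43 with 8267 and 7326 Ribo-seq counts. Cytosolic chaperones had a median of -0.54 with 10 of 23 below, led by HSP90AA1 at -2.64. Splicing factors had -0.52 with 14 of 39 below, led by HNRNPA3 at -4.65, but +0.34 among those with no small RNA gene, small RNA pseudogene or named pseudogene. G2/M genes had -0.41, with 8 of 36 below, and the lowest was KPNA2, an importin, at -2.37.

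Nuclear subunits of the respiratory chain and ATP synthase lay above the median member, at 0.47, with 21 of 67 members at least 2-fold above and 8 below. COX7A2, a subunit of cytochrome oxidase, was the highest at 3.35 with 870 and 1675 Ribo-seq counts, and the complex I subunits NDUFB9, NDUFA1 and NDUFS4 were at 2.28, 2.13 and 2.12. ATP5MC2, a subunit of the ATP synthase rotor, was the lowest at -2.17. With the 9 subunits lost to the filter the median was 0.16. Matrix genes had a median of 0.61, with 7 of 23 above and 1 below, and COL1A1, the alpha-1 chain of type I collagen, was at 3.40 from 329 and 190 Ribo-seq counts. ER chaperones had 0.19, with 5 of 25 above and 2 below, between SPCS1, a signal peptidase subunit, at 3.07 and the disulfide isomerase PDIA3 at -2.98. Of the classes with at least 4 members, only histones, large-subunit ribosomal proteins, other TOP genes and tubulins with actins had a median 1 or more away from the median member.

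**Figure D4:**
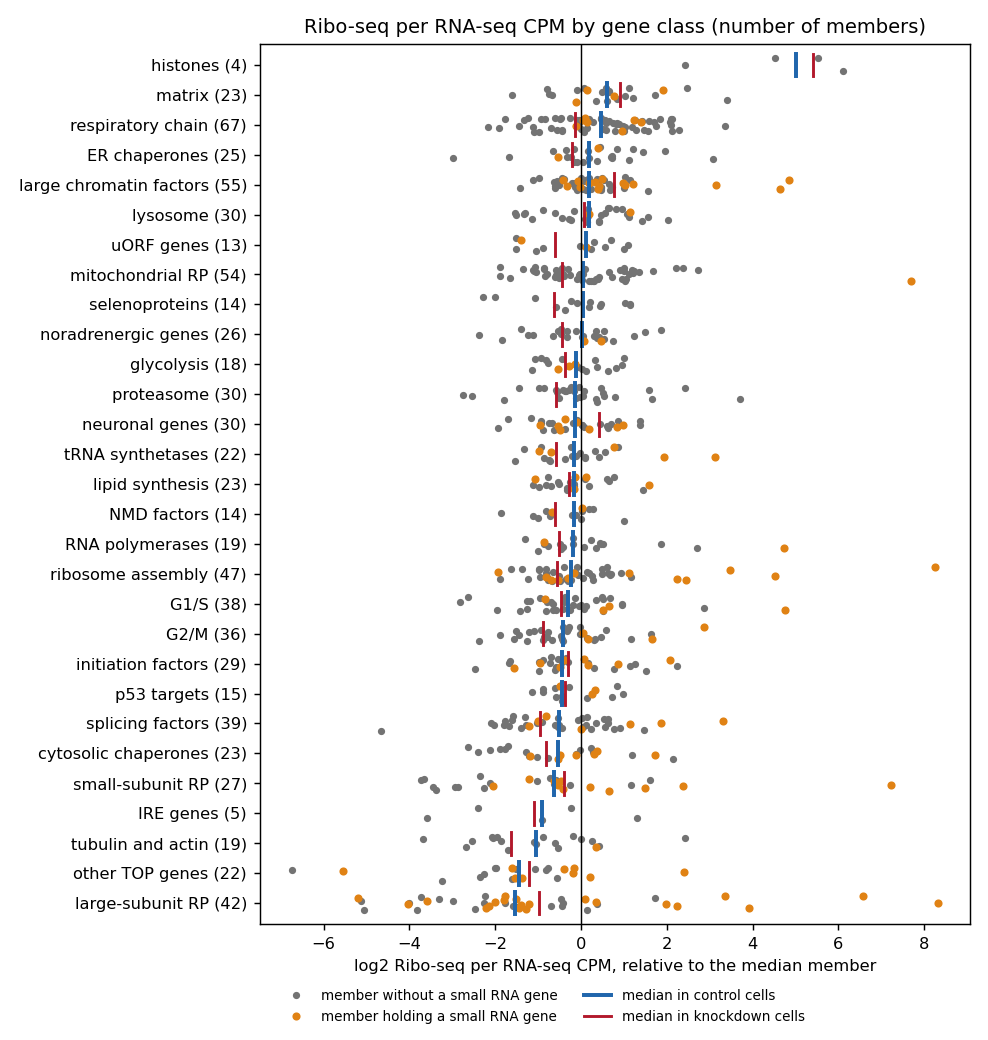
Ratio of each member by functional class, sorted by the control median. Blue bars are control medians and red bars knockdown medians; orange points hold a small RNA gene. Large-subunit ribosomal proteins are lowest at -1.55 and histones highest at 5.02, and several of the highest points of other classes are orange.

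Lysosomal genes (0.18), large chromatin regulators (0.19), mitochondrial ribosomal proteins (0.04), noradrenergic genes (0.03), the proteasome (-0.14) and glycolysis (-0.11) lay near the median member. Each held a spread far wider than its distance from 0. Mitochondrial ribosomal protein genes ran from -1.89 (MRPS26) to 7.69 (MRPL3), with 24 of 78 lost to the Ribo-seq minimum. Noradrenergic genes ran from TBX2 at -2.39 to LMO1 at 1.86, both transcriptional regulators. The class medians are a description of genes chosen with results of these data known.

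Genes whose mRNAs carry regulatory upstream open reading frames (uORFs), short frames that limit initiation at the main start, were described one by one. Of 20 at 10 RNA-seq CPM or more 13 were members, with a median of 0.12, which was -0.62 with those lost included. ATF4, the effector of the integrated stress response, had 1870 and 1847 RNA-seq counts and 19 and 25 Ribo-seq counts, 1 count short of the minimum, and a ratio of -2.20. AMD1, an enzyme of polyamine synthesis, was at -2.20 with 16 and 42 Ribo-seq counts. Both lay below every uORF gene that passed, the lowest of which were MDM2 (-1.52), the ubiquitin ligase of p53, and SLC35A4 (-1.51). ATF4 and AMD1 have 4 named pseudogenes each, whose part in these ratios was not tested, and the 5 other uORF genes lost to the filter have none and lay between -0.88 and -0.19. ODC1, the first enzyme of polyamine synthesis, was at -1.40, TMED2 at -1.05 and CEBPG at -0.89. EIF2AK1, the haem-regulated kinase of the stress response, and PPP1R15B, which directs dephosphorylation of its target, were highest at 1.10 and 1.01. SLC7A1 (-0.03), ATF5 (0.12), AZIN1 (0.24), IFRD1 (0.30), IBTK (0.57) and UGDH (0.70) lay between. The replicates of UGDH were at 1.42 and -0.53 and those of SLC35A4 at -2.21 and -0.97, so their places in this order are not firm.

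Messenger RNAs with an iron-responsive element in the 5′ region, which iron regulatory proteins bind to block translation when iron is low, included 2 far below the median member. FTH1, the ferritin heavy chain, had 63 and 101 Ribo-seq counts against 17459 and 18397 RNA-seq counts, a ratio of -3.58. FTL, the ferritin light chain, had 67 and 158 against 10823 and 10743, a ratio of -2.41. HIF1A and EPAS1, subunits of hypoxia-inducible factors, were at -0.90 and -0.24. FTH1 and FTL have 27 and 20 named pseudogenes, HIF1A 1 and EPAS1 none. SLC40A1, the iron exporter, did not reach the Ribo-seq minimum.

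The knockdown libraries took no part in choosing or ranking the genes and allow a test of the same measure. Ribo-seq was compared with RNA-seq in the 4 shRPS29 libraries with edgeR's quasi-likelihood F test over 12674 genes. Over all genes tested 25.1% were called higher and 19.9% lower at an adjusted p under 0.05. Of the 6275 members 965 were higher and 1535 lower. The median member lay at -0.45 in that test, and at -0.32 with DESeq2's size factors, and differences are given relative to it. Calls, p-values and SEs were computed on the difference before that shift, tested against 0. At equal distance from the median member, a call lower was therefore easier to reach than a call higher. All of the 100 highest members in control cells were called higher, and 97 of the 100 lowest were called lower. Of the 1143 members at least 2-fold above in control, 641 were called higher and 6 lower, and of the 971 at least 2-fold below, 6 were called higher and 706 lower. With 1 library left out its assay has a single sample, which is assumed to vary like the other assay, so these counts follow which assay supplies the spread. The number of calls was 619 without knockdown RNA-seq replicate 1, 684 without RNA-seq replicate 2, 4554 without Ribo-seq replicate 1 and 4891 without Ribo-seq replicate 2, against 2500 in full. The median SE was 0.93 where only Ribo-seq was replicated and 0.21 and 0.26 where only RNA-seq was, against 0.36 in full.

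Among the named genes, HOXD3 had 39835 and 84863 Ribo-seq counts against 470 and 438 RNA-seq counts in the knockdown libraries, a difference of 11.82 (SE 0.767, edgeR adjusted p = 0.00239). HNRNPA1 had 15 and 21 against 31939 and 26875, a difference of -5.89 (SE 0.406, edgeR adjusted p = 0.00234). RPLP0 had 62 and 124 against 38848 and 31927, a difference of -3.84 (SE 0.384, edgeR adjusted p = 0.00302). H1-2 had 145 and 327 against 186 and 113, a difference of 5.38 (SE 0.421, edgeR adjusted p = 0.00281). FTH1 had 29 and 96 against 19856 and 18707, a difference of -3.60 (SE 0.486, edgeR adjusted p = 0.00494). Each of these genes lay on the side it held in control cells. The 10 highest and 10 lowest named genes, described above by their control values, were all called on that side, with median differences of 9.18 and -3.25, and each kept its call under every alternative that tested it. CFL1, 2-fold above in control, was not called (difference 1.36, edgeR adjusted p = 0.193), and the call of COX7A2 (3.23, adjusted p = 0.00728) was lost without either RNA-seq replicate.

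**Figure D5:**
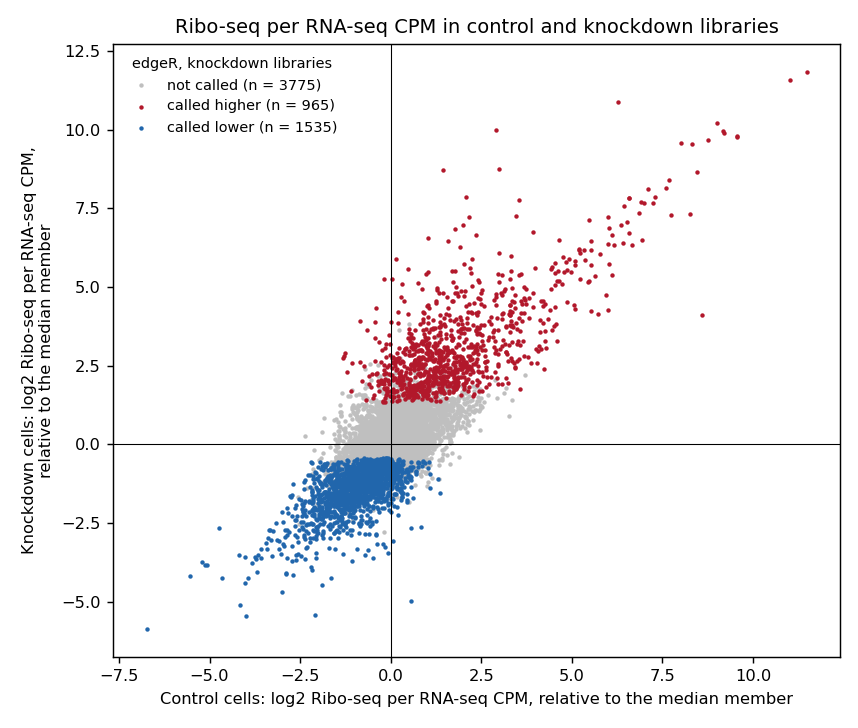
Ratio in control cells against ratio in knockdown cells, 1 point per member, each relative to the median member; colour gives the edgeR call in the knockdown libraries. Of the points, 965 are called higher, 1535 lower and 3775 neither, and the far ends of the control ranking are called on the same side in the knockdown libraries.

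Over all members 15.4% were called higher and 24.5% lower, beside which the class counts are read. All 4 histone members were called higher. Of 42 large-subunit ribosomal protein members 21 were called lower and 6 higher, of 27 small-subunit members 11 lower and 5 higher, and of 22 other TOP members 14 lower and 1 higher. Of 19 tubulin and actin members 11 were lower and none higher. Respiratory chain members, whose median was above 0 in control cells, had 21 of 67 lower and 3 higher in the knockdown libraries and a median of -0.14. Of 13 uORF members 7 were lower and none higher, and of 5 members with an iron-responsive element 3 were lower, FTH1, FTL and HIF1A. Of 55 large chromatin regulators 7 were higher (12.7%, under the share of all members) and 2 lower (3.64%), and their median ratio was 0.77 in knockdown and 0.19 in control cells. Members holding a small RNA gene were called higher in 280 and lower in 150 of 878.

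Gene span went with the ratio more closely in the knockdown libraries. Across the members Spearman's rho between ratio and span was 0.18 in control and 0.49 in knockdown cells (over genes sharing the same libraries). Members spanning over 200 kb (n = 576) had a median of 0.67 in control and 2.16 in knockdown cells, and those under 10 kb (n = 1040) had -0.14 and -0.61. Large chromatin regulators had a median span of 134 kb and respiratory chain genes 11 kb, so span moves with the class differences just given, and its part in them was not tested. The knockdown Ribo-seq replicate 1 stood apart, with 60.6% of its counts in members against 81.3% in replicate 2 and 80.5 and 78.3% in the control libraries. By replicate, rho with span was 0.21 and 0.14 in control and 0.53 and 0.39 in knockdown cells, and the median over 200 kb was 0.83 and 0.55 in control and 2.7 and 1.6 in knockdown cells. Large chromatin regulators had medians of 0.79 and 0.45 and the respiratory chain -0.44 and 0.04 in the 2 knockdown replicates, so the respiratory chain lay below the median member in the first of them only.

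A test of the change itself, the interaction of assay and condition over all 8 libraries, called 219 genes higher and 58 lower of 12800 (1.71 and 0.453%), of which 75 and 55 were members. It shares the control libraries with the ranking, so these are counts only. EdgeR called 0 members without any one of the 4 RNA-seq libraries or without control Ribo-seq replicate 2, where 288 to 546 were higher and 430 to 1086 lower at an unadjusted p under 0.05. It called 646 without control Ribo-seq replicate 1, 713 without knockdown Ribo-seq replicate 1 and 2399 without knockdown Ribo-seq replicate 2. None of the 91 ribosomal protein and TOP members and none of the 4 histone members was called in it. Only 130 of all 6275 members were called, so a lack of calls in lists of this size says little about these classes. At an unadjusted p under 0.05 it had 504 higher and 1136 lower members, and DESeq2 called 389 and 904 members. Of the 1143 members 2-fold above in control 870 were 2-fold above in the knockdown libraries, and of the 971 below 669 were below there.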

How the data were processed

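The authors deposited 1 table per assay with whole-number counts per gene symbol, which show no normalization. The submitters' processing notes name hg38 and the tools STAR, Bowtie2, Salmon, featureCounts and Trim Galore. Not given in the sources used here are which tool made which table, versions, annotation, the handling of multiply mapped reads, and any limit of Ribo-seq counts to coding exons or to some fragment length. Ribo-seq used RNase I digestion, size-exclusion purification, rRNA depletion and a small RNA kit, per the labels' protocols.

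CPM is scaled to library totals. Ratios are log2 of mean Ribo-seq CPM over mean RNA-seq CPM over the 2 control libraries, minus the median member's value. No pseudocount was used. Symbols were matched to RefSeq GRCh38.p14 for span, type, small RNA genes and pseudogenes. Coordinates are on that build. Tests used edgeR 4.0.16 in R 4.3.3 (quasi-likelihood F test, TMM, filterByExpr, Benjamini-Hochberg over all genes tested, calls at adjusted p under 0.05) and DESeq2 1.42.0 as an alternative. Standard errors are the log2 difference, before any shift to the median member, divided by the square root of F. Tested on simulated counts for the knockdown comparison (11858 genes run), edgeR recovered 0, 38, 74 and 86% of genes changed 2-, 4-, 8- and 16-fold, with 3 false calls. For the interaction (12771 genes) it recovered 0, 4, 60 and 64%, with 2 false calls.

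Functional classes are 35 gene lists, 4 of them cell type markers. Named genes are the 10 highest and 10 lowest members that are protein-coding, hold no small RNA gene and have at least 50 counts in each control Ribo-seq library, the highest and lowest of each list with at least 4 members, and all uORF and iron-responsive element members; others were chosen after their values were seen. Some genes this rule names are not reported here. The members and lists were chosen with earlier results of these data known. Alternatives were other count and RNA minimums, no filter, genes with no small RNA gene, a background per kb of span subtracted, TMM within each assay, DESeq2's size factors, DESeq2, a replicate block and leaving out each library.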

Additional observations from a re-analysis of the deposited data

Results flagged for a closer look

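In 2 named genes the interaction of assay and condition was called, as a change of the Ribo-to-RNA ratio between the hairpins. PARD3 changed by -4.92 on the log2 scale (SE 0.651, edgeR adjusted p = 0.0326). Its Ribo-seq counts were 14724 and 31987 in control and 757 and 687 in knockdown libraries, and its RNA-seq counts were 1033 and 1170 and 1289 and 1203. PARD3 was named for its high control ratio, so the test shares control values with that choice. Its p-value is therefore not read as evidence of a change. Of the 10 genes named by that rule 8 had a higher ratio in knockdown than in control cells. IFRD1, a regulator of transcription with a uORF, changed by -1.93 (SE 0.334, edgeR adjusted p = 0.0383). Its Ribo-seq counts were 44 and 42 in control and 42 and 77 in knockdown libraries, while its RNA-seq counts were 624 and 672 in control and 4194 and 3424 in knockdown libraries. No member was called in this test without either RNA-seq library of either condition.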

How the results depend on the processing

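The counts of members at least 2-fold from the median member (2114 in all) moved with the genes admitted. They were 649 (377 above and 272 below) with at least 100 Ribo-seq counts, 5458 (2990 and 2468) with no filter, and 1175 (659 and 516) in members with no small RNA gene, small RNA pseudogene or named pseudogene, an alternative chosen after seeing the data. With an RNA minimum of 30 CPM 751 lay above. Class medians lay below 0 in 20 of 31 lists and in 13 after background subtraction, which left 5314 of the 6275 members with a value. The background rate came from 151 genes at 0.1 RNA-seq CPM or less. That limit admits histone genes with many Ribo-seq counts, such as H2AC12 with 417 and 408 in control libraries, so the rate may be too high. Over all alternatives, 132 class medians moved by more than the replicate spread and 137 did not, and for named genes these were 170 and 550 ratios. None that was 2-fold from the median member changed sign. Medians of both ribosomal protein lists, other TOP genes and tubulins and actins stayed below 0, and those of histones, respiratory chain and matrix above 0, under all alternatives that left at least 4 members.

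Calls in the knockdown libraries (2500) were 1444 (560 higher and 884 lower) with at least 50 counts in every library. Leaving out 1 library gave 619 to 4891 calls (325 to 1758 higher and 294 to 3346 lower). Of the tests of named genes, 62 lost a call, 46 gained one and 767 did neither. The interaction (130 members) gave 1293 (389 and 904) with DESeq2, 124 higher with at least 50 counts, and 0 to 2399 with 1 library left out (0 to 694 higher, 0 to 1705 lower).

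Replicate numbers did not pair the samples: correlations of the deviations of same-numbered samples lay between -0.056 and 0.064. With a replicate block the knockdown test called 2400 members (874 higher and 1526 lower) and the interaction 58 (47 and 11). Ribo-seq depth limits the ranking: a member at 20 counts carries a large counting error. In the simulated knockdown comparison 0% of the 49 genes changed 2-fold were recovered. Few of its 11858 genes were changed, while 25.1% were called higher and 19.9% lower in the data. The simulation therefore does not give the power of the test in the data, and it did not cover the control ranking.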
